A study of Mus musculus with 6 samples.

Results

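Signals of 8 sodium channel, gap junction and conduction cell genes were followed in left ventricles of mice that overexpressed the RNA-binding protein Rbm24. The 8 genes were the conduction cell markers Pcp4 and Cntn2, the sodium channel genes Scn7a, Scn10a and Scn4b, and the gap junction genes Gja1, Gjc1 and Gja5. They were chosen by function, with earlier results of these data known. Counts among them are therefore set beside shares of all clusters as a description. A row of the array table counted for a gene only if the platform annotation gave that symbol and no other. All 8 genes were found with 1 transcript cluster each (the set of probes that the array sums to 1 gene-level signal), out of 30738 genes with a cluster of their own and 65956 clusters in all.

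Wildtype male C57/Bl6 mice received an intraperitoneal injection of 4000000000000 vg of AAV9-Rbm24 (n = 3 mice) or of AAV9-GFP (n = 3 mice) at 1 week of age, and hearts were collected 2 weeks later. AAV9-Rbm24 is an adeno-associated virus with the open reading frame of mouse Rbm24 behind a flag tag and a CMV promoter, which is not restricted to one cell type, and AAV9-GFP encodes green fluorescent protein as the control. AAV9 enters mainly cardiomyocytes, and only some of them carried the transgene, so that each array averages over transduced and other cells. RNA of 1 left ventricle was hybridised to each Affymetrix Mouse Transcriptome Array, and the deposited values are log2 signals, on which a difference of 1 is a doubling of signal.

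The heartbeat spreads as sodium channels open in one cell after another and current crosses to the next cell through gap junctions, channels built of connexins that sit in the intercalated discs at the ends of cardiomyocytes. The sinus node, the atrioventricular node and the His-Purkinje fibres are specialised cardiomyocytes that start and distribute the impulse. They differ from the working ventricle in their connexins, ion channels and surface molecules, and a left ventricle holds few of them beside its working muscle.

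Rbm24 itself gave log2 signals of 14.58, 14.74 and 15.12 in the AAV9-Rbm24 hearts, against 13.95, 13.63 and 13.57 in the AAV9-GFP hearts. The groups did not overlap and lay in the order of their labels (log2 difference of AAV9-Rbm24 minus AAV9-GFP means 1.10, standard error, SE, 0.17, limma adjusted p = 0.0607). Median signals of the 6 arrays lay between 5.49 and 5.67, and AAV9-GFP replicate 2 stood apart from the other arrays on the first principal component, with a score of -64.3 against scores of -9.7 to 41.4. The 23 antigenomic background rows of the arrays, probes that match no mouse sequence, had a median of 3.65 and ranged between 2.64 and 7.44. The mean of every member gene was above that median in both groups. Scn4b lay below the array median in all 6 hearts, Scn10a was below it in the 3 AAV9-Rbm24 hearts and above it in the 3 AAV9-GFP hearts, and the other 6 genes were above it in every heart.

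Among the 8 genes, Pcp4 was lower in AAV9-Rbm24 hearts at an adjusted p under 0.05 and no gene was higher, where 0.0258% of all clusters were lower and 0.241% higher at that threshold. At an unadjusted p under 0.05, Pcp4 and Cntn2 were lower and Scn7a and Gja1 higher, beside 4.33% of all clusters lower and 4.08% higher. For Cntn2, Scn7a and Gja1 that threshold was missed in some of the other fits, given beside each gene. The 3 hearts of one group did not overlap the 3 of the other for 3 genes that were lower (Pcp4, Cntn2 and Scn10a) and 3 that were higher (Scn7a, Gja1 and Gjc1), while 7.71% of all clusters were lower and 7.01% higher in that way. With the thresholds of the methods, which ask for a 1.5-fold difference or more and p under 0.05 in an analysis of variance with no adjustment, Pcp4 was lower and none of the 8 was higher, against 0.381% of all clusters lower and 1.01% higher. The median log2 difference was -0.07 over the 8 genes and -0.03 over all clusters.

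**Figure D1:**
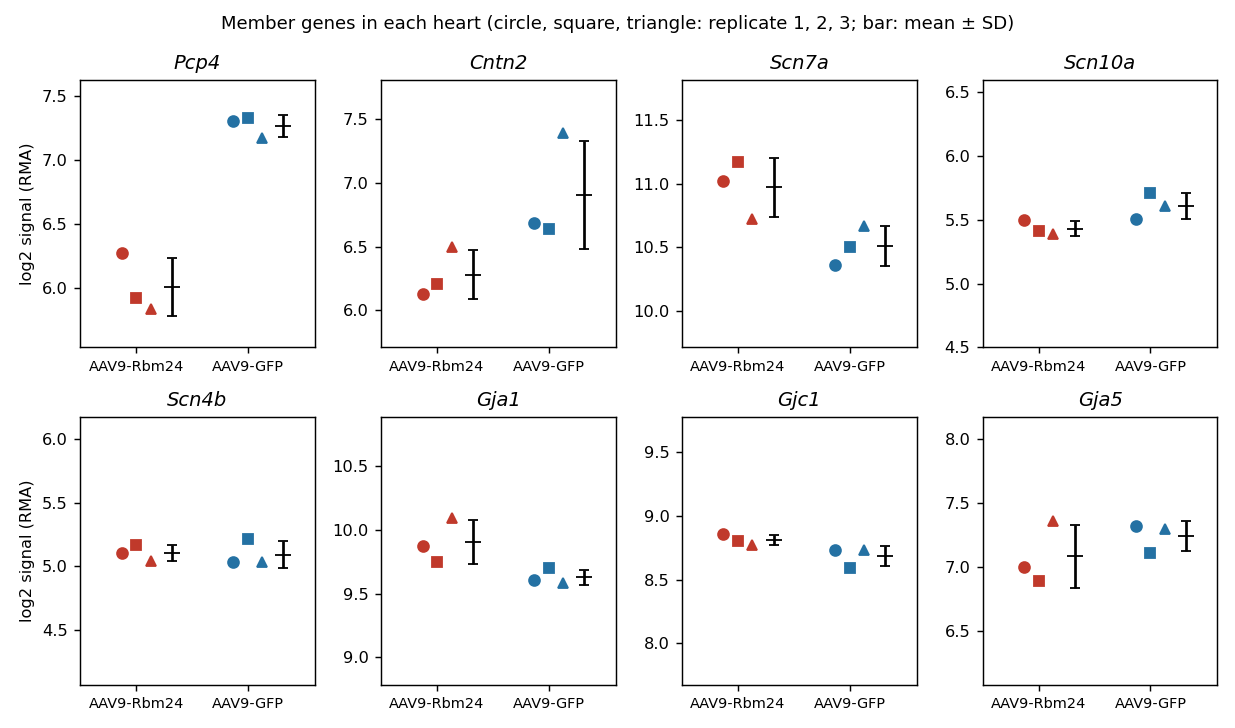
Log2 signal (vertical axis, the same span in each panel) of the 8 genes in each heart, AAV9-Rbm24 on the left in red and AAV9-GFP on the right in blue, with the mean and SD of 3 hearts as a bar. The Pcp4 hearts sit between 5.83 and 6.27 with AAV9-Rbm24 and between 7.17 and 7.33 with AAV9-GFP, the widest separation of the 8 panels, and the groups overlap for Scn4b and Gja5.

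Pcp4 and Cntn2 are both known in the mouse heart as markers of conduction cells. Pcp4 encodes a small peptide that binds calmodulin and alters how it exchanges calcium, and it is enriched in Purkinje cells. Cntn2 encodes contactin 2, a lipid-anchored adhesion protein of the immunoglobulin family that marks conduction cells from the nodes to the Purkinje network. Both had lower signals in every AAV9-Rbm24 heart than in any AAV9-GFP heart, and the promoters of this pair are therefore given together, as the 250 bases before the transcript start in RefSeq (build GRCm38.p6), at chr16:96467356-96467605 on the plus strand for Pcp4 and chr1:132542941-132543190 on the minus strand for Cntn2. Capitals mark the only match to the 4 motifs searched, a GGTGTG in Pcp4.
Pcp4: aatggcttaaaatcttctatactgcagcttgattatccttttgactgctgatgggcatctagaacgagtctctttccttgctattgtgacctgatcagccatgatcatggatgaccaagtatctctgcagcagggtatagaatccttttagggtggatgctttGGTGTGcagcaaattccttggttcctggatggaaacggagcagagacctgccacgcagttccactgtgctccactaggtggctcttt
Cntn2: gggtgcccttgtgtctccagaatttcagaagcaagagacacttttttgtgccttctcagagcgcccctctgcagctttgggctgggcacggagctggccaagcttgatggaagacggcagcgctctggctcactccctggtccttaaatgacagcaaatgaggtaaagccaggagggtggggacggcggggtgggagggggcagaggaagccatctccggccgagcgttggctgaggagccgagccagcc

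The motifs, searched on both strands, were the T-box half-site GGTGTG, the Nkx2-5 site TNAAGTG, the GATA site AGATAA and the AP-1 site TGANTCA. Promoters of 7 of the 8 genes were matched in the RefSeq table, all but that of Gjc1. GGTGTG was found in Pcp4 at bases -87 to -82 from the start and in no other of the 7, and 16.3% of all 32851 promoters of that length hold it. Cntn2 had none of the 4 motifs, and TNAAGTG, held by 10.1% of all promoters, was in none of the 7. No match overlapped a match to another motif. A match is a stretch of letters and no measurement of binding.

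Pcp4 gave log2 signals of 6.27, 5.92 and 5.83 in the AAV9-Rbm24 hearts, against 7.31, 7.33 and 7.17 in the AAV9-GFP hearts. The highest AAV9-Rbm24 heart was 0.90 below the lowest AAV9-GFP heart, and the AAV9-GFP hearts lay within 0.16 of each other. Pcp4 averaged 6.005 ± 0.23 in AAV9-Rbm24 hearts and 7.27 ± 0.09 in AAV9-GFP hearts (SD, n = 3 each). It fell by 1.26 on the log2 scale, or 2.40-fold (SE 0.14, 95% interval -1.58 to -0.95, limma adjusted p = 0.0222), and its p was the 50th smallest of all clusters. The exact two-sided permutation test gave p = 0.1, the smallest that 3 hearts against 3 can give. In whole tissue, fewer cells of a type and less RNA per cell cannot be told apart. The call for Pcp4 was lost when any array other than AAV9-Rbm24 replicate 1 was left out (limma adjusted p = 0.105 and 0.0516 without AAV9-Rbm24 replicates 2 and 3, and 0.0964, 0.135 and 0.0738 without AAV9-GFP replicates 1, 2 and 3), and in the methods' analysis of variance (adjusted p = 0.364), while the log2 difference stayed between -1.40 and -1.18.

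Cntn2 gave log2 signals of 6.13, 6.21 and 6.50 in the AAV9-Rbm24 hearts, against 6.69, 6.64 and 7.39 in the AAV9-GFP hearts. AAV9-GFP replicate 3 was high, 0.49 above its group's mean, and the groups were 0.14 apart at their nearest hearts. Cntn2 averaged 6.28 ± 0.19 in AAV9-Rbm24 hearts and 6.91 ± 0.42 in AAV9-GFP hearts (SD, n = 3 each), a log2 difference of -0.63 (SE 0.21, 95% interval -1.12 to -0.14, limma adjusted p = 0.446). This did not pass the adjusted threshold, and the difference was -0.38 when AAV9-GFP replicate 3 was left out. The unadjusted p was 0.0186 in limma, against 0.0791 in the methods' analysis of variance and, in limma, 0.06 and 0.0515 without AAV9-Rbm24 replicates 1 and 2.

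**Figure D2:**
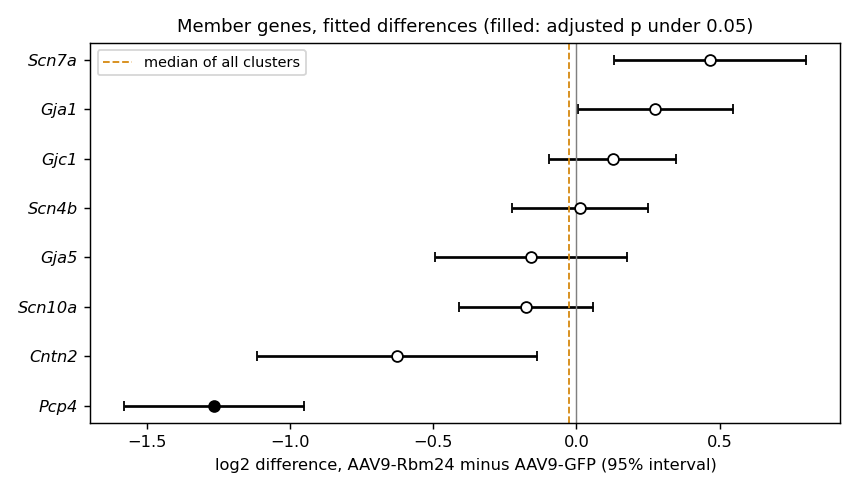
Log2 difference of AAV9-Rbm24 minus AAV9-GFP hearts (horizontal axis) for the 8 genes, as points with 95% intervals from limma. Pcp4 at -1.26 is the filled point, with an adjusted p under 0.05; the intervals of Cntn2, Gja1 and Scn7a leave out 0 without passing the adjusted threshold, and the dashed line is the median of all clusters at -0.03.

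The sodium channel genes had log2 differences of 0.47 for Scn7a, -0.18 for Scn10a and 0.01 for Scn4b, none past the adjusted threshold. Scn7a encodes a channel-like protein that senses extracellular sodium and, unlike its relatives, is not opened by voltage in the usual way, and it is known from glia, Schwann cells and other cells that do not fire. Its signal was higher in each AAV9-Rbm24 heart than in any AAV9-GFP heart. The 250 bases before its start lie at chr2:66784911-66785160 on the minus strand (GRCm38.p6). They are shown because they hold AGATAA, as does the promoter of Gja1 and no other of the 7. It is present here as its reverse complement TTATCT, in capitals at bases -116 to -111, and 10.0% of all promoters hold that motif. A link between the motif and the direction of change was not tested.
Scn7a: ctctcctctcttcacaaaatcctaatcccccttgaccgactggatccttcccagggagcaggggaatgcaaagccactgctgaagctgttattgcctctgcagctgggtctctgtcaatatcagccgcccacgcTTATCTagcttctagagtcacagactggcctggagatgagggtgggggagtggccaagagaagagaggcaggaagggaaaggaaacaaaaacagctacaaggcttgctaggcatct

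Scn7a gave log2 signals of 11.02, 11.17 and 10.72 in the AAV9-Rbm24 hearts, against 10.36, 10.50 and 10.67 in the AAV9-GFP hearts. AAV9-Rbm24 replicate 3 was the lowest of its group and came within 0.06 of AAV9-GFP replicate 3, the highest of the controls. Scn7a averaged 10.97 ± 0.23 in AAV9-Rbm24 hearts and 10.51 ± 0.15 in AAV9-GFP hearts (SD, n = 3 each), a log2 difference of 0.47 or 1.38-fold (SE 0.14, 95% interval 0.13 to 0.80, limma adjusted p = 0.394). It did not pass the adjusted threshold, and the unadjusted limma p of 0.0128 became 0.0514 without AAV9-Rbm24 replicate 2.

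Scn10a encodes a voltage-gated sodium channel of pain-sensing neurons. Its log2 signals were 5.50, 5.41 and 5.39 in the AAV9-Rbm24 hearts, against 5.51, 5.71 and 5.61 in the AAV9-GFP hearts. The groups were separated by 0.01, so that AAV9-Rbm24 replicate 1 and AAV9-GFP replicate 1 were next to equal. The log2 difference was -0.18 (95% interval -0.41 to 0.06, limma adjusted p = 0.706) at a level near the array medians.

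Scn4b encodes a beta subunit that is bound to the pore-forming sodium channel and shapes how it reopens. It gave log2 signals of 5.10, 5.17 and 5.04 in the AAV9-Rbm24 hearts and 5.03, 5.21 and 5.03 in the AAV9-GFP hearts. All hearts lay in one narrow band and the groups overlapped (exact two-sided permutation test, p = 0.8). The log2 difference of 0.01 had a 95% interval of -0.22 to 0.25. At a signal below the array median in all 6 hearts, this interval describes the probe signal and does not bound a difference in RNA. The sign of the log2 difference turned in 3 of the 6 fits that left out 1 array.

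Log2 differences of the 3 gap junction genes lay between -0.16 and 0.28. Gja1 encodes the main connexin of the working ventricle, Gjc1 a connexin of nodal cells and of the early heart, and Gja5 the connexin of atria, Purkinje fibres and arterial endothelium. Gja1 is shown with the 250 bases before its start, at chr10:56377050-56377299 on the plus strand (GRCm38.p6), as the one promoter of the 7 with matches to 2 of the motifs. Capitals mark TTATCT at bases -135 to -130, the reverse complement of AGATAA, and TGAGTCA at bases -19 to -13, an AP-1 match that 6.7% hold.
Gja1: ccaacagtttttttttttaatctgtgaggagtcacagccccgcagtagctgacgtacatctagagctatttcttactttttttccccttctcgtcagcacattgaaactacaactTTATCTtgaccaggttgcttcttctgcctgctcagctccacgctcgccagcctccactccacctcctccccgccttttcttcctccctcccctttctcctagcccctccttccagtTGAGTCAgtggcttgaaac

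Gja1 gave log2 signals of 9.87, 9.75 and 10.09 in the AAV9-Rbm24 hearts, against 9.61, 9.70 and 9.58 in the AAV9-GFP hearts. AAV9-Rbm24 replicate 3 was the highest, and the lowest AAV9-Rbm24 heart was 0.05 above the highest AAV9-GFP heart. Gja1 averaged 9.91 ± 0.17 in AAV9-Rbm24 hearts and 9.63 ± 0.06 in AAV9-GFP hearts (SD, n = 3 each), a log2 difference of 0.28 or 1.21-fold (SE 0.12, 95% interval 0.00426 to 0.55, limma adjusted p = 0.585), which did not pass the adjusted threshold. The unadjusted limma p of 0.0473 became 0.0998 after renewed quantile normalization, 0.0715 with the replicate block, 0.0842 and 0.161 without AAV9-Rbm24 replicates 1 and 3, and 0.101 and 0.114 without AAV9-GFP replicates 1 and 3, and it was 0.0607 in the methods' analysis of variance. Without AAV9-Rbm24 replicate 3 the log2 difference was 0.18.

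Gjc1 gave log2 signals of 8.86, 8.80 and 8.77 in the AAV9-Rbm24 hearts, against 8.73, 8.59 and 8.73 in the AAV9-GFP hearts. The groups did not overlap, with 0.04 between the nearest hearts. The log2 difference was 0.13 (95% interval -0.10 to 0.35, limma adjusted p = 0.784).

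Gja5 gave log2 signals of 7.0, 6.89 and 7.36 in the AAV9-Rbm24 hearts, against 7.32, 7.11 and 7.30 in the AAV9-GFP hearts. AAV9-Rbm24 replicate 3 was the highest of all 6 while the other 2 AAV9-Rbm24 hearts were the lowest, and the groups overlapped (exact two-sided permutation test, p = 0.4). The log2 difference was -0.16 (95% interval -0.49 to 0.18, limma adjusted p = 0.82). It was -0.30 without AAV9-Rbm24 replicate 3 (limma adjusted p = 0.662, with an unadjusted value of 0.0478) and -0.06 without AAV9-Rbm24 replicate 2.

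Within a heart, the log2 signal of Gja1 minus that of Gja5 was 2.87, 2.86 and 2.73 in the AAV9-Rbm24 hearts, against 2.29, 2.59 and 2.28 in the AAV9-GFP hearts. The differences between the probe signals of this pair did not overlap between the groups, with means of 2.82 and 2.39, and no test was made of them since the pair was picked after its values were seen. Gja1 minus Gjc1 was 1.02, 0.95 and 1.32 in the AAV9-Rbm24 hearts and 0.88, 1.10 and 0.86 in the AAV9-GFP hearts, which overlapped. AAV9-Rbm24 replicate 3 was at an end of its group for all 8 genes, the highest for Gja1, Gja5 and Cntn2 and the lowest for Scn4b, Scn7a, Scn10a, Gjc1 and Pcp4. These are differences of log2 signals of different probes and do not compare amounts of RNA between genes.

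Genes of the same functions outside the 8 were followed in 7 lists, with 104 genes sought and 89 measured in a cluster of their own. These lists were also chosen with earlier results of these data known, and their counts are a description. None of the 89 passed the adjusted threshold in limma. At an unadjusted p under 0.05, 14 were lower in AAV9-Rbm24 hearts and 6 higher, beside 4.33% of all clusters lower and 4.08% higher. For 22 lower and 8 higher genes the groups did not overlap, beside 7.71% and 7.01% of all clusters, so that the share of higher genes was near that of all clusters. The same shares of all clusters stand behind the counts in single lists, and 1 gene of a list was not read as a result about that list. The mean was lower for 63 of the 89 genes, where 37680 of 65956 clusters were lower, and the median log2 difference was -0.08.

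The other sodium channel genes measured were 9, voltage-gated channel subunits and the leak channel Nalcn. Of these 9, 0 had an unadjusted p under 0.05 in limma and 1 mean was above the array medians. Their log2 differences ran from -0.13 to 0.07 with a median of -0.06. Of 11 partners of sodium channels, 3 were lower at an unadjusted p under 0.05, with a median log2 difference of -0.11. Fgf14 and Fgf13 encode intracellular proteins of the fibroblast growth factor family that bind sodium channels and set how they inactivate. Fgf14 gave log2 signals of 6.44, 6.43 and 6.76 in the AAV9-Rbm24 hearts, against 7.15, 7.44 and 7.44 in the AAV9-GFP hearts. The groups were 0.39 apart, and the log2 difference was -0.80 (SE 0.14, limma adjusted p = 0.0864), or limma adjusted p = 0.0434 in a fit restricted to clusters of a single symbol. Fgf13 had a log2 difference of -0.35 (limma adjusted p = 0.446), and Rangrf, whose protein helps bring sodium channels to the cell surface, one of -0.30 (limma adjusted p = 0.519).

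Of 16 other connexins and pannexins, 4 had a mean above the array medians, 1 was higher at an unadjusted p under 0.05, and the median log2 difference was 0.01. Gjb2, a connexin of epithelia, gave log2 signals of 4.58, 4.55 and 4.56 in the AAV9-Rbm24 hearts, against 4.19, 4.41 and 4.34 in the AAV9-GFP hearts. It was below the array median in every heart, and its log2 difference of 0.25 had a limma adjusted p of 0.552. Of 12 partners in the intercalated disc, an unadjusted p under 0.05 was reached by 1 that was higher and 2 that were lower, with a median log2 difference of -0.14. Pkp2 encodes plakophilin 2, which ties desmosomes to the cytoskeleton, and gave log2 signals of 13.90, 13.89 and 13.92 in the AAV9-Rbm24 hearts, against 13.64, 13.46 and 13.56 in the AAV9-GFP hearts. Its hearts were tightly grouped and 0.25 apart, with a log2 difference of 0.35 (SE 0.10, limma adjusted p = 0.314). The desmosomal cadherin Dsc2 had a log2 difference of -0.52 (limma adjusted p = 0.424), and the membrane adaptor Ank2 one of -0.25 (limma adjusted p = 0.582).

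Of 14 transcription factors that pattern the conduction system, 4 that were lower and 1 that was higher had an unadjusted p under 0.05, and the median log2 difference was -0.0097. Id2, an inhibitor of basic helix-loop-helix factors that takes part in forming the ventricular conduction system, gave log2 signals of 10.70, 10.59 and 10.41 in the AAV9-Rbm24 hearts, against 9.75, 9.45 and 9.05 in the AAV9-GFP hearts. Its groups were 0.66 apart, with a log2 difference of 1.15 (SE 0.18, limma adjusted p = 0.066), or limma adjusted p = 0.0339 in a fit restricted to clusters of a single symbol. Tbx5 drives expression of Gja5 and of sodium channels in mouse conduction cells, and it gave log2 signals of 9.78, 9.72 and 9.57 in the AAV9-Rbm24 hearts, against 10.27, 9.96 and 10.31 in the AAV9-GFP hearts. The groups did not overlap, and the log2 difference was -0.49 (SE 0.13, limma adjusted p = 0.269). Hopx and Gata6 had log2 differences of -0.58 and -0.41 (limma adjusted p = 0.343 and 0.45), and Hopx one of -0.27 when its 2 clusters were averaged. Nkx2-5 had a log2 difference of -0.24 (limma adjusted p = 0.784), with groups that overlapped, and the difference was -0.12 without AAV9-Rbm24 replicate 2 and -0.08 and -0.39 without AAV9-GFP replicates 1 and 2. Tbx3, the repressor that keeps nodal cells from a working muscle program, had a log2 difference of -0.01 (95% interval -0.29 to 0.26, limma adjusted p = 0.989), and of 0.01 when each array was centred on its median.

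Of 17 conduction cell markers and pacemaker channels, 4 that were lower and 3 that were higher had an unadjusted p under 0.05, with a median log2 difference of -0.16. Hcn4, the main pacemaker channel of nodal cells, gave log2 signals of 6.71, 6.68 and 7.30 in the AAV9-Rbm24 hearts, against 7.56, 7.55 and 7.78 in the AAV9-GFP hearts. AAV9-Rbm24 replicate 3 was the nearest to the controls, 0.25 below them, and the log2 difference was -0.73 (SE 0.18, limma adjusted p = 0.232). Kcnj3 encodes a potassium channel subunit that acetylcholine opens through G proteins, and gave log2 signals of 10.23, 10.07 and 10.41 in the AAV9-Rbm24 hearts, against 10.84, 10.90 and 11.19 in the AAV9-GFP hearts. Its groups were 0.43 apart, with a log2 difference of -0.74 (SE 0.14, limma adjusted p = 0.109). The pacemaker channel Hcn2 had a log2 difference of -0.53 (limma adjusted p = 0.252). The guidance ligand Slit2 gave log2 signals of 7.10, 7.19 and 7.21 in the AAV9-Rbm24 hearts, against 6.76, 6.74 and 6.76 in the AAV9-GFP hearts, and a log2 difference of 0.41 (SE 0.09, limma adjusted p = 0.189). Also higher were Igfbp5 and Smoc2, with log2 differences of 0.55 and 0.29 (limma adjusted p = 0.398 and 0.563) and groups 0.01 and 0.05 apart. Rgs6 was lower, with a log2 difference of -0.46 (limma adjusted p = 0.299).

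Of 10 relatives of contactin 2 and Pcp4, 3 had a mean above the array medians, 1 was lower at an unadjusted p under 0.05, and the median log2 difference was -0.09. Pcp4l1, a relative of Pcp4 with a similar calmodulin-binding motif, gave log2 signals of 12.47, 12.17 and 12.19 in the AAV9-Rbm24 hearts, against 12.83, 12.77 and 13.19 in the AAV9-GFP hearts. The groups were 0.30 apart, and the log2 difference was -0.65 (SE 0.15, limma adjusted p = 0.197). It lay on the same side of the control hearts as Pcp4 but did not pass the adjusted threshold.

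**Figure D3:**
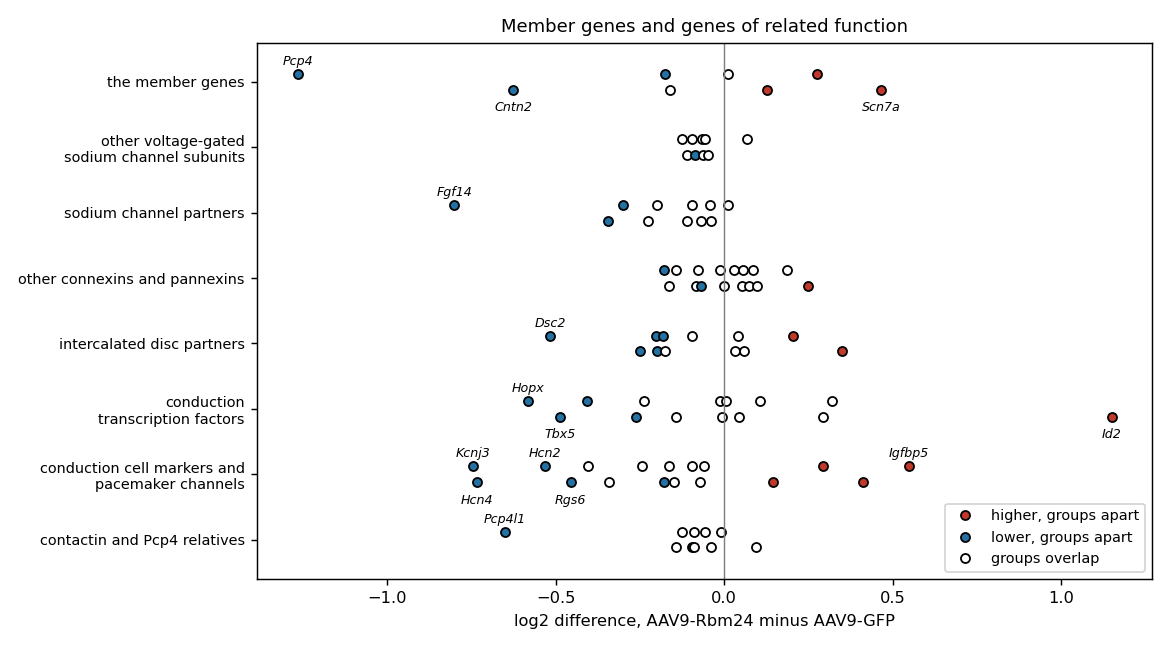
Log2 difference of AAV9-Rbm24 minus AAV9-GFP hearts (horizontal axis) of the 8 genes in the top row and of the 89 related genes in 7 lists below, filled where the 3 hearts of one group do not overlap the other (red higher, blue lower). Pcp4 at -1.26 lies farthest to the left and Id2 at 1.15 farthest to the right, and none of the 89 related genes passed the adjusted threshold in limma.

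The genes whose pattern over the 6 hearts was most like that of Pcp4 were sought among 10839 genes whose signal averaged 6 or more on the log2 scale, as the smallest root mean square difference between log2 signals centred on each gene's mean. They were Slc36a2, an amino acid transporter, at 0.10, Phkg1, a catalytic subunit of phosphorylase kinase, at 0.20, Maob, a mitochondrial monoamine oxidase, at 0.21, the water channel Aqp1 at 0.22 and the arsenic methyltransferase As3mt at 0.22. Slc36a2 gave log2 signals of 9.38, 8.88 and 9.01 in the AAV9-Rbm24 hearts, against 10.46, 10.23 and 10.31 in the AAV9-GFP hearts. Like Pcp4 it was higher in AAV9-Rbm24 replicate 1 than in the other 2 AAV9-Rbm24 hearts, and the groups were 0.85 apart. All 5 genes were chosen for this likeness, so their lower signals are a description, and they share the 6 arrays with Pcp4.

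**Figure D4:**
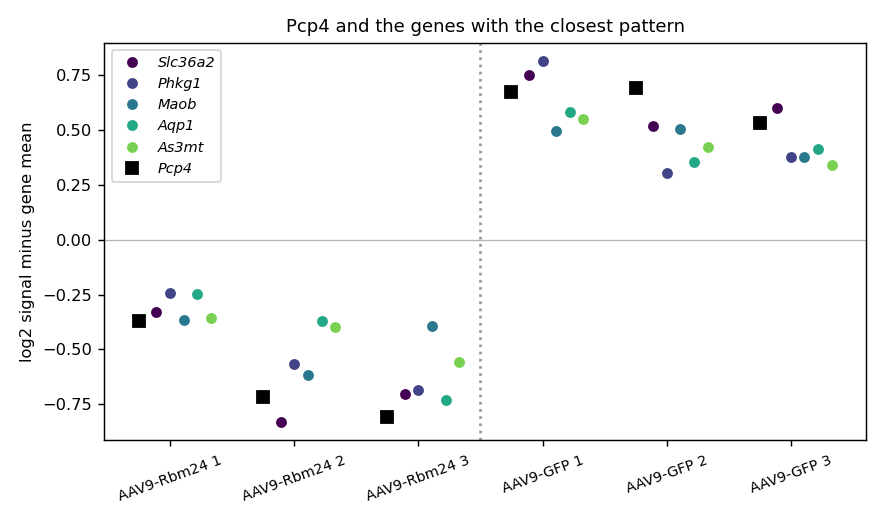
Log2 signal minus the gene's own mean over the 6 hearts (vertical axis) for Pcp4, as black squares, and the 5 genes with the closest pattern, as coloured points, in each heart. All 6 genes are below their mean in the 3 AAV9-Rbm24 hearts, on the left of the dotted line, and above it in the 3 AAV9-GFP hearts.

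Marker genes of the cells that a left ventricle holds were summed on the linear scale in each heart, since the member genes are known from different cells. Counts of markers without overlap, here and below, stand beside 7.71% of all clusters lower and 7.01% higher in that way. The 7 ventricular cardiomyocyte markers summed to 2458791 to 2500691 in AAV9-Rbm24 hearts and 2490917 to 2602823 in AAV9-GFP hearts. Of these 7, 3 were lower without overlap, Ryr2, Tnni3 and Myl3, with log2 differences of -0.36, -0.20 and -0.18 (limma adjusted p = 0.51, 0.648 and 0.693), and their part in the lower signals of Pcp4 and Cntn2 was not tested. Myh6 and Tnnt2, which define cardiomyocytes, gave log2 signals of 19.77 to 19.89 in the 6 hearts, near the highest value of the arrays, and made up most of the sum. Schwann cell markers, which bear on Scn7a, summed to 371 to 470 in AAV9-Rbm24 hearts and 336 to 358 in AAV9-GFP hearts. Cdh19 was the brightest of them and weighed most in that sum, and the median log2 difference over the list was 0.04. Of 6 measured, Cdh19 alone had groups that did not overlap, with log2 signals of 8.09, 8.02 and 7.45 in the AAV9-Rbm24 hearts against 7.26, 7.24 and 7.42 in the AAV9-GFP hearts, and the defining markers Mbp, Sox10 and Mag were below the array median. Cdh19 and Scn7a were both lowest in replicate 3 among the AAV9-Rbm24 hearts and highest in replicate 3 among the AAV9-GFP hearts, and the part of Schwann cells in the Scn7a signal was not tested.

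Neuron markers, which bear on Scn10a, summed to 276 to 294 in AAV9-Rbm24 hearts and 278 to 310 in AAV9-GFP hearts, with 6 of 7 below the array median. Dbh, among those 6, was lower without overlap, as Scn10a was, and was the only 1 of the 7 with groups apart. Its log2 signals were 5.25, 4.92 and 4.95 in the AAV9-Rbm24 hearts against 5.47, 5.51 and 5.27 in the AAV9-GFP hearts (limma adjusted p = 0.453). Over the 7 markers the median log2 difference was -0.05, with 5 means lower and 2 higher. The part of neurons in the Scn10a signal was not tested. Arterial endothelial markers, which bear on Gja5, summed to 2753 to 3360 in AAV9-Rbm24 hearts and 2959 to 3664 in AAV9-GFP hearts, and of 6 only Dll4 had groups that did not overlap, at a log2 difference of -0.32 (limma adjusted p = 0.414). General endothelial markers summed to 48064 to 49394 in AAV9-Rbm24 hearts and 47381 to 56006 in AAV9-GFP hearts. For the atrial list the sum was 392324 to 616962 in AAV9-Rbm24 hearts and 33650 to 193493 in AAV9-GFP hearts, mostly through Nppa, which ventricles under load also make. Nppa and Dkk3 were higher without overlap, while Bmp10 and Mybphl were below the array median and Myl7 and Sln overlapped between the groups.

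Most markers of fibroblasts and all of macrophages were higher without overlap, beside 7.01% of all clusters. At an adjusted p under 0.05 in limma, 0.241% of all clusters were higher. Fibroblast markers summed to 159399 to 202236 in AAV9-Rbm24 hearts and 79477 to 90242 in AAV9-GFP hearts, with 7 of 8 higher without overlap, 4 of them at an adjusted p under 0.05 in limma, and Tcf21 at a log2 difference of -0.03. Macrophage markers summed to 35195 to 85052 in AAV9-Rbm24 hearts and 5697 to 10375 in AAV9-GFP hearts, with 7 of 7 higher without overlap and 4 at an adjusted p under 0.05 in limma. Gja1 is also expressed in fibroblasts, and the heart with the highest Gja1 signal, AAV9-Rbm24 replicate 3, also had the highest fibroblast and macrophage sums. Among the AAV9-GFP hearts, replicate 2 had the highest Gja1 signal and the lowest fibroblast and macrophage sums, 79477 and 5697. AAV9-Rbm24 replicate 1 had more Gja1 signal than replicate 2, with a lower fibroblast sum (159399 against 167595) and a higher macrophage sum (44467 against 35195). The part of these cells in the signals of Gja1, Scn7a and Pcp4 was not tested. Smooth muscle and skeletal muscle sums overlapped between the groups, and no marker list had a member at or below the median of the background rows.

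**Figure D5:**
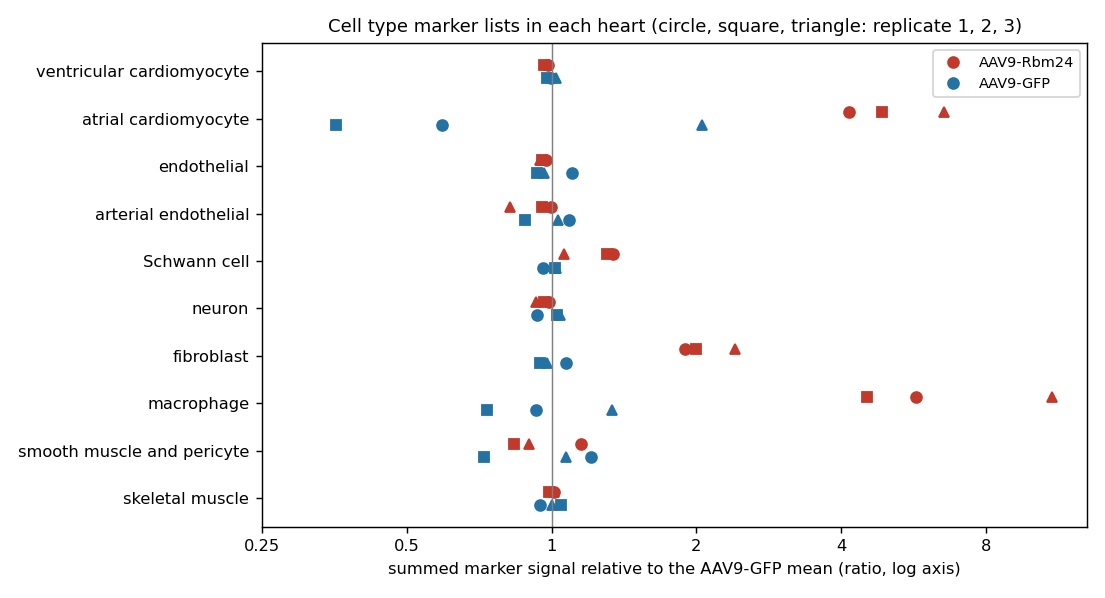
Summed signal of each marker list in each heart relative to the AAV9-GFP mean of that list (horizontal axis, ratio on a log axis), AAV9-Rbm24 in red above AAV9-GFP in blue. The atrial, fibroblast and macrophage sums of the 3 AAV9-Rbm24 hearts lie above all 3 AAV9-GFP hearts. The Schwann cell sums, in which Cdh19 weighs most, are 371 to 470 against 336 to 358, and the other lists overlap.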

How the data were processed

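Left ventricles of 6 mice were each measured on 1 array. The values used are log2 signals of transcript clusters as the authors deposited them. RMA, which corrects background, normalizes between arrays and summarizes probes, and Affymetrix Expression Console are named in the submitters' processing notes. For their versions and for the genome build, the entry is not given in the sources used here. The 6732 control rows were left out, and all 65956 clusters were tested, dim signals included. The platform annotation, with symbols brought up to date from RefSeq, gave 1 symbol to 31292 clusters, several to 1522, which stay unnamed, and none to 33142. The brightest cluster, by its mean over 6 arrays, stood for a gene with several.

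The main test was limma 3.58.1 (R 4.3.3; linear model per cluster with moderated variances, prior degrees of freedom 3.77), two-sided, with Benjamini-Hochberg adjustment over all clusters and a threshold of 0.05. It was tested on simulated data. Single values were compared by an exact permutation test over hearts. The limma p-values set each difference against the spread between 3 mice a group, moderated towards the spread over all clusters. This number of arrays limits the precision. Named genes are the 8 genes, Rbm24, Hcn4, Tbx3, Tbx5 and Nkx2-5, up to 4 genes per related list with the smallest p among those whose groups do not overlap and whose unadjusted p is under 0.05, and the 5 genes closest to Pcp4 in pattern. Igfbp5, Smoc2 and Rgs6 were added as the remaining genes of their list with an unadjusted p under 0.05. Cell type markers are named where a list's sum or calls turned on them. The genes and lists were chosen with earlier results of these data known. Promoters are the 250 bases before the RefSeq start. The 16 alternatives were minimum mean signals of 6 and 8, clusters with 1 symbol, averaging a gene's clusters, centring, renewed quantile normalization, an intensity trend, array weights, the methods' analysis of variance, the replicate block and each array left out.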

Additional observations from a re-analysis of the deposited data

How the results depend on the processing

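Of 121 values of the 8 genes under the alternatives, 112 kept their direction and side of the threshold, and 6 lost the call, all of them for Pcp4. Pcp4 had a log2 fold change of -1.26 in the methods' analysis of variance (adjusted p = 0.364) and of -1.40 to -1.18 with single arrays left out (adjusted p = 0.0471 to 0.135 from limma). The other 3 were Scn4b, which reversed and ran from -0.0198 to 0.074 with arrays left out. Tbx3 reversed to 0.0119 with centred arrays and ran from -0.104 to 0.0813 with arrays left out. The 159 clusters higher and 17 lower became 0 and 0 in the methods' analysis of variance (2731 and 2489 at an unadjusted p under 0.05) and 0 to 90 and 0 to 4 with arrays left out, with 0 and 0 without AAV9-GFP replicate 2 (3444 and 3101 at an unadjusted p under 0.05, limma). The lower clusters numbered 36 with a minimum mean of 6, 11 with centred arrays, 63 with array weights and 37 among clusters with 1 symbol. One sodium channel partner was lower (Fgf14) and 1 conduction transcription factor higher (Id2) among clusters with 1 symbol, and 1 and 1 after averaging the clusters of a gene. In these fits fewer tests were adjusted for and the variances were moderated anew. Scn4b and Scn10a had no value at a minimum mean of 6, nor Pcp4, Cntn2 and Gja5 at 8. The causes of the moves were not tested. The labels do not say whether replicate numbers pair the mice. Deviations of same-numbered hearts correlated at 0.03, 0.10 and 0.15, and those of differently numbered hearts at -0.12 to 0.03. With 3 hearts a group, these values cannot decide whether the mice were paired. With the replicate block, 76 clusters were higher and 7 lower, Pcp4 kept its call (-1.26, adjusted p = 0.0462 from limma) and none of the other 7 genes gained one. At signals near the array medians, as for Scn4b and Scn10a, background limits what a fold change can show.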
